A study of Homo sapiens with 2 samples.

Results

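Genes of the contractile apparatus were followed between 2 substates of H9, a human embryonic stem cell line. The set held 10 genes: the titin gene TTN, the myosin phosphatase subunits PPP1R12A and PPP1R12B, the actins ACTA2, ACTC1 and ACTG2, the actin-binding gene TAGLN, the light chain gene MYL9, and the tropomyosins TPM1 and TPM2. A non-control probe was taken as a member when the RefSeq accession given for it on the array maps to one of these genes, which gave 21 of the 58201 probes. TTN and PPP1R12B were chosen on these same 2 arrays because several of their probes were lower in substate 2, so their differences are given as a description and support nothing. The other 8 genes were taken for their roles, with earlier results of these data known.

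One Agilent single-colour array was hybridised per substate, substate 1 from cells at passage 35 and substate 2 from cells at passage 50. The study characterised both substates in H9 cells grown on Matrigel, a basement membrane extract, in the defined medium TeSR-E8, and the labels name no treatment. It moved cells from vitronectin to Matrigel at passage 35, the passage given for substate 1. In the study substate 1 stood for colonies with strong staining for the R-10G keratan sulphate epitope and no vimentin, and substate 2 for colonies with weaker R-10G staining and vimentin. With 1 array of 1 cell line per substate there was no replicate, so no difference below has a test. Substate, passage, array and any difference in matrix or in time on Matrigel cannot be told apart.

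Titin is a giant protein of striated muscle that spans from the Z-disc to the M-line of the sarcomere and acts as a spring and a ruler for the thick filament. Contraction of smooth muscle and of non-muscle stress fibres is instead set by phosphorylation of the myosin regulatory light chain. Myosin phosphatase, made of a catalytic subunit and a targeting subunit from the PPP1R12 family, removes that phosphate, while tropomyosins, calponins and transgelin decorate the actin filament. Embryonic stem cells are not muscle, but they contain actin and myosin filaments, and many muscle genes are transcribed in them at low level.

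Each value is the processed signal of the scanner software, in arbitrary units, followed by the scanner's own error for that spot. A difference is the log2 signal of substate 2 minus that of substate 1, after the 75th percentile of each array was subtracted, and its error combines the scanner errors of both arrays. This error covers the spots only, not cultures or hybridisations. A probe was called measured when the scanner flagged it as well above background. Levels are not compared between probes, apart from the summed marker signals, where the part of single probes is given only as a description. The 75th percentile lay at 313.7 units in substate 1 and 275.4 in substate 2, and 57.4% and 54.7% of non-control spots were well above background.

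Of the 21 member probes, 17 were measured on both arrays, 1 on substate 1 only and 3 on neither array. The 17 probes covered 9 of the 10 genes, ACTC1 being the exception. Of the 17, 14 were below 0 and 3 above it, with a median of -0.24 against 0.06 over all 29883 probes measured on both arrays, but 5 of the 14 are TTN and PPP1R12B probes. Without these genes, 9 of 12 probes were below 0 and 3 above it, with a median of -0.15. Over genes, 7 of the 9 were lower and 2 higher, with a median of -0.18, and without TTN and PPP1R12B 5 of 7 were lower, with a median of -0.15. Over the 16001 genes measured on both arrays, 40.2% were lower and the median was 0.08. TTN was the lowest of the 9, followed by ACTG2, TAGLN and PPP1R12B, and TPM2 and ACTA2 were the higher ones. In bulk RNA, fewer cells that express a gene and less of its RNA per cell cannot be told apart.

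**Figure D1:**
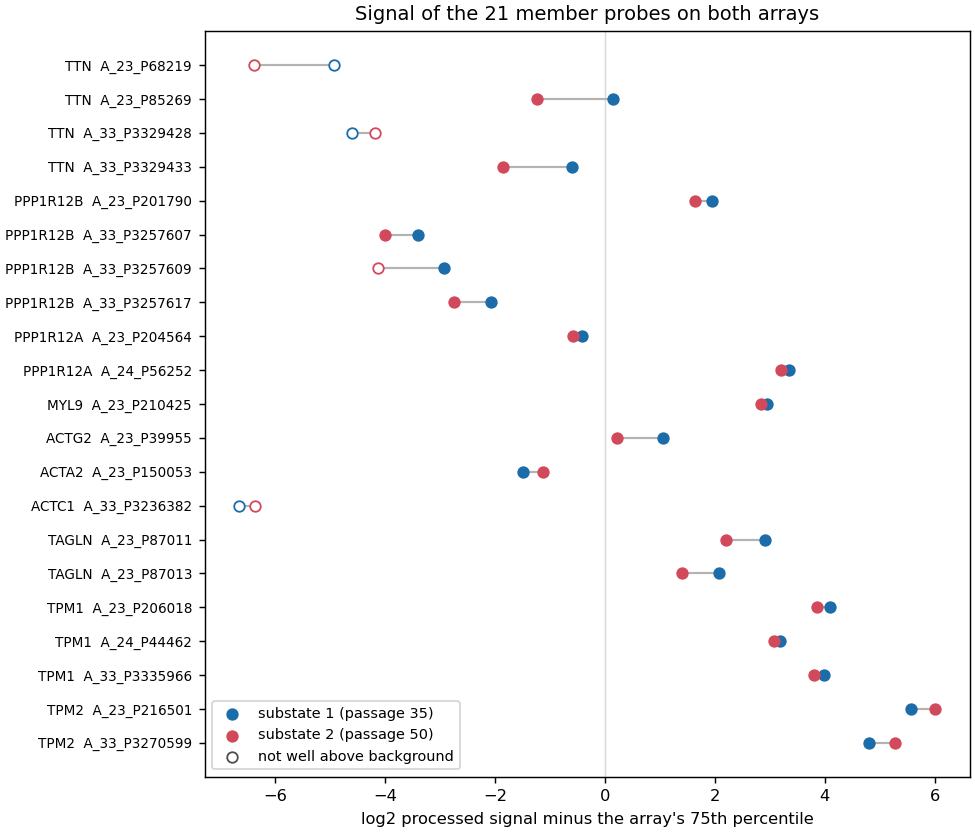
Normalised log2 signal (x axis, log2 of the processed signal minus the 75th percentile of the array) of the 21 member probes (y axis, gene and probe) in substate 1 and substate 2, with open points where a probe was not well above background and a grey line joining the arrays. Among filled points the gap is widest for TTN, from 0.15 to -1.23 on A_23_P85269, and positions of different probes along the axis are not comparable.

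TTN was represented by 4 probes, of which 2 were measured on both arrays. Probe A_23_P85269, placed by the array on the N2-A transcript (NM_133378), gave 349 ± 35.1 units in substate 1 and 117 ± 12.1 in substate 2, a difference of -1.39 ± 0.21 or 2.62-fold lower. Probe A_33_P3329433, on the long inferred transcript NM_001267550, gave 208 ± 21.1 and 76.5 ± 8.56 units, a difference of -1.25 ± 0.22 or 2.38-fold lower. Both were lower in substate 2 by several times the scanner error, and they lay 0.14 apart. Their mean of -1.32 put TTN, which was chosen for this difference, at rank 3 from the lowest among the 4236 genes with at least 2 measured probes, and 0.344% of the 16001 measured genes had a lower mean. With a normexp background correction of the median spot signal, run with an offset of 50 units, the mean was -0.90, and without a filter on dim probes it was -0.92.

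The other 2 TTN probes carry the accession of the novex-3 transcript (NM_133379), which ends in its own terminal exon. They were near background on both arrays, at 10.3 ± 3.26 and 3.28 ± 3.30 units for A_23_P68219 and at 12.8 ± 3.70 and 15.2 ± 3.89 units for A_33_P3329428. They pointed in opposite directions with errors of 1.52 and 0.56 on the log2 scale, so no fold is given, and the novex-3 accession was not well above background on either array.

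The antisense RNA TTN-AS1, transcribed from the strand opposite to TTN, had 5 probes, all measured on both arrays. Their differences ran from -0.20 to 0.31 with a mean of 0.02. Probe A_21_P0000745 gave 503 units in substate 1 and 384 in substate 2. The antisense RNA was thus within 0.31 of no difference on each probe, and since TTN was chosen for its difference, no contrast between the 2 genes is read from this.

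The 250 bases before the TTN start are shown because TTN had the largest difference of the set, and because they can be set beside the actin promoters below. In the RefSeq table of GRCh38.p14 they lie at chr2:178807424-178807673 on the minus strand.

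TTN: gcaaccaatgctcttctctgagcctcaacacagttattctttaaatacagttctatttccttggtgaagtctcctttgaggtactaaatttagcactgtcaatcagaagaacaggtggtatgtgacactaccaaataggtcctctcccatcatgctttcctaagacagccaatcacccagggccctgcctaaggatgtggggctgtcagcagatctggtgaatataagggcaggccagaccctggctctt

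The 3 genes with at least 2 measured probes whose mean lay nearest to that of TTN were POTED at -1.21, SPINK5, a serine protease inhibitor of the skin, at -1.44, and RGL3 at -1.20. This likeness rests on 1 difference between 2 arrays and not on a pattern over samples.

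PPP1R12B, which encodes the myosin phosphatase targeting subunit found mainly in heart, skeletal muscle and brain, was lower on each of its 4 probes. Probe A_23_P201790 gave 1214 ± 121 units in substate 1 and 853 ± 85.4 in substate 2, a difference of -0.32 ± 0.20. Probe A_33_P3257617 gave 74.3 ± 8.22 and 40.9 ± 5.55 units, a difference of -0.68 ± 0.25, and A_33_P3257607 gave 29.8 ± 4.27 and 17.2 ± 3.64 units, a difference of -0.61 ± 0.37. The 3 differences overlap within their errors, and the 3 probes carry the accessions of different transcripts. The fourth probe, A_33_P3257609, shares its accession with A_23_P201790. It gave 41.0 ± 5.5 units in substate 1 and was not well above background in substate 2, at 15.8 ± 4.34. Its bound of 2.28-fold lower is the same as its own difference of -1.19 ± 0.44, so the true fold may be smaller.

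The mean of the 3 measured PPP1R12B probes was -0.53, or 1.45-fold lower, at rank 127 from the lowest of 4236 genes. With the normexp correction the mean was -0.19 and the bound of the fourth probe -0.29 on the log2 scale, both still below 0. Genes with a mean nearest to it were ZNF253 (-0.54), ACER2 (-0.53) and PDP2 (-0.54). Their probes were as far apart as those of PPP1R12B or farther for ZNF253 and ACER2, which ran from -0.90 to -0.17 and from -1.07 to 0.00, and closer for PDP2, which ran from -0.63 to -0.44.

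The paralogue PPP1R12A, the targeting subunit present in most tissues, was close to the bulk of genes. Probe A_24_P56252 gave 3180 ± 318 units in substate 1 and 2545 ± 255 in substate 2, a difference of -0.13 ± 0.20, and A_23_P204564 gave 235 ± 23.7 and 184 ± 18.6 units, a difference of -0.17 ± 0.21. Each was within its scanner error of no difference. The third family member, PPP1R12C, was at -0.14 on its only probe, and the catalytic subunit PPP1CB was at 0.37 and 0.38 on its 2 probes. The other catalytic subunit genes were at 0.52 for PPP1CA and 0.17 for PPP1CC, and the related targeting subunits at 0.05 for PPP1R16A and 0.26 for PPP1R16B. MYL9, the regulatory light chain that this phosphatase acts on, gave 2414 ± 241 and 1957 ± 196 units, a difference of -0.12 ± 0.20, which is within the error.

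**Figure D2:**
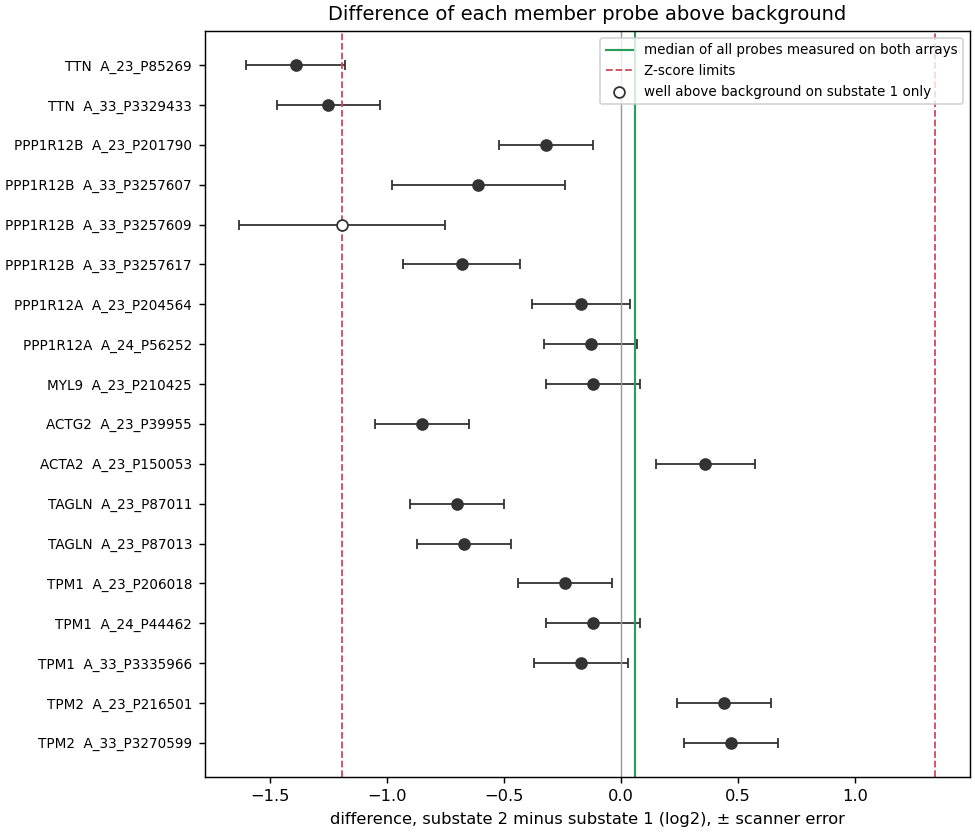
Difference between substate 2 and substate 1 (x axis, log2) for the 18 member probes measured on 1 or both arrays (y axis), with bars for the scanner error, the median of all measured probes as a green line and the Z-score limits of -1.19 and 1.34 as dashed lines. The open point is the PPP1R12B probe measured in substate 1 only. The TTN probes at -1.39 and -1.25 are the only filled points beyond a dashed line.

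The 3 actin genes gave 3 different pictures. ACTG2, the enteric smooth muscle actin, gave 656 ± 65.7 units in substate 1 and 318 ± 32.0 in substate 2, a difference of -0.85 ± 0.20 or 1.81-fold lower, with 1.81% of measured genes lower still. ACTA2, the vascular smooth muscle actin that is also used as a marker of mesoderm and of myofibroblasts, gave 111 ± 11.6 and 125 ± 13.0 units, a difference of 0.36 ± 0.21. ACTC1, the cardiac actin, was near background on its only probe, at 3.12 ± 3.13 and 3.36 ± 3.37 units, so it has no fold. Of the smooth muscle actins, the enteric gene was thus lower and the vascular one was higher by less than 2 scanner errors.

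The actin genes are highly alike in their coding sequence, and whether these probes separate the paralogues could not be checked, since probe sequences were not used here. The values of the others serve as a reference. The skeletal muscle actin ACTA1 was at -0.88, with 1099 units in substate 1 and 523 in substate 2, while the cytoplasmic actins were at -0.03 and 0.33 for the 2 ACTB probes and at 0.25 for ACTG1.

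The upstream sequences of the 3 actin genes are shown because serum response factor (SRF), the regulator of muscle and cytoskeletal actin genes, is known to act through the CArG box, a motif of CC and GG around A or T bases. Perfect matches are in capitals, and since the pattern is symmetric, a search of either strand finds the same places. Among the RefSeq promoters of GRCh38.p14, 1.16% of 35116 start sites had such a match in the 250 bases before the start, and 2 of the 17 start sites listed for 8 of the member genes did. TAGLN and MYL9 had no listed start site. The ACTG2 window (chr2:73892758-73893007, plus strand) held 2 matches, starting 110 and 73 bases before the start site. The farthest upstream ACTC1 start (chr15:34795550-34795799, minus strand) held 1 match at 109 bases, and the ACTA2 window (chr10:88952774-88953023, minus strand) held no perfect match. Imperfect matches were not searched for, so this does not show that ACTA2 lacks a CArG box.

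ACTG2: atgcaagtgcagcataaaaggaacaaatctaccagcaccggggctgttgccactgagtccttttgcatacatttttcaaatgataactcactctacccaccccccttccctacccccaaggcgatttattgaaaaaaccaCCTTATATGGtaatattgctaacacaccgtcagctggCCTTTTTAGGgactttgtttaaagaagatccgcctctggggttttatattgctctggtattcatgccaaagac
ACTC1: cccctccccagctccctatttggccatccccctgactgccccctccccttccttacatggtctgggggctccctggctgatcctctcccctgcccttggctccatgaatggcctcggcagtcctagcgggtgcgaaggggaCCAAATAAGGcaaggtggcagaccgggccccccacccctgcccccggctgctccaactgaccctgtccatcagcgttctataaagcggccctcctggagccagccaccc
ACTA2: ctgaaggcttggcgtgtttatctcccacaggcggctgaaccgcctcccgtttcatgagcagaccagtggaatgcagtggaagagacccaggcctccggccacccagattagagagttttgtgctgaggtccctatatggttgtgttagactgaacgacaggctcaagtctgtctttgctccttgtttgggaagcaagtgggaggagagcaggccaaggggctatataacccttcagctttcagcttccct

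A perfect match here was found both before the actin gene that was lower and before the one near background, and it was absent in the windows of TTN, PPP1R12A, PPP1R12B, TPM1 and TPM2. The letters are a description of these windows and not of SRF binding. SRF itself was at -0.07, and its cofactors were at 0.23 for MRTFA and -0.07 for MRTFB. The muscle-restricted cofactor MYOCD was not well above background on either array.

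TAGLN, which encodes the smooth muscle protein transgelin and is used as a readout of the SRF pathway, was lower on both of its probes. Probe A_23_P87011 gave 2353 ± 235 units in substate 1 and 1270 ± 127 in substate 2, a difference of -0.70 ± 0.20, and A_23_P87013 gave 1317 ± 132 and 726 ± 72.7 units, a difference of -0.67 ± 0.20. The 2 probes share an accession and lay 0.03 apart, and their mean of -0.69 was 1.61-fold lower, at rank 60 from the lowest of 4236 genes. Of its paralogues, TAGLN2 was at 0.12 with an error of 0.20, within the error of no difference, and the neuronal TAGLN3 was at 1.28, from 105 units in substate 1 to 224 in substate 2.

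The tropomyosins, coiled-coil proteins along the actin filament, gave values that differed between the genes. The 3 TPM1 probes gave 5366 ± 537, 2862 ± 286 and 4935 ± 494 units in substate 1 and 3988 ± 399, 2307 ± 231 and 3862 ± 386 in substate 2. Their differences were -0.24, -0.12 and -0.17, each with an error of 0.20, so each was at or within about 1 error of no difference, with a mean of -0.18. The 2 TPM2 probes gave 14785 ± 1479 and 8750 ± 875 units in substate 1 and 17576 ± 1758 and 10618 ± 1062 in substate 2. TPM2 was thus higher on both, by 0.44 and 0.47 with an error of 0.20 each, and at rank 3976 of 4236 genes it stood near the upper end. The non-muscle tropomyosins TPM3 and TPM4 were at 0.04 and 0.16. When differences were centred by a loess curve on the mean signal, TPM2 was at 0.29 and TPM1 at -0.30.

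**Figure D3:**
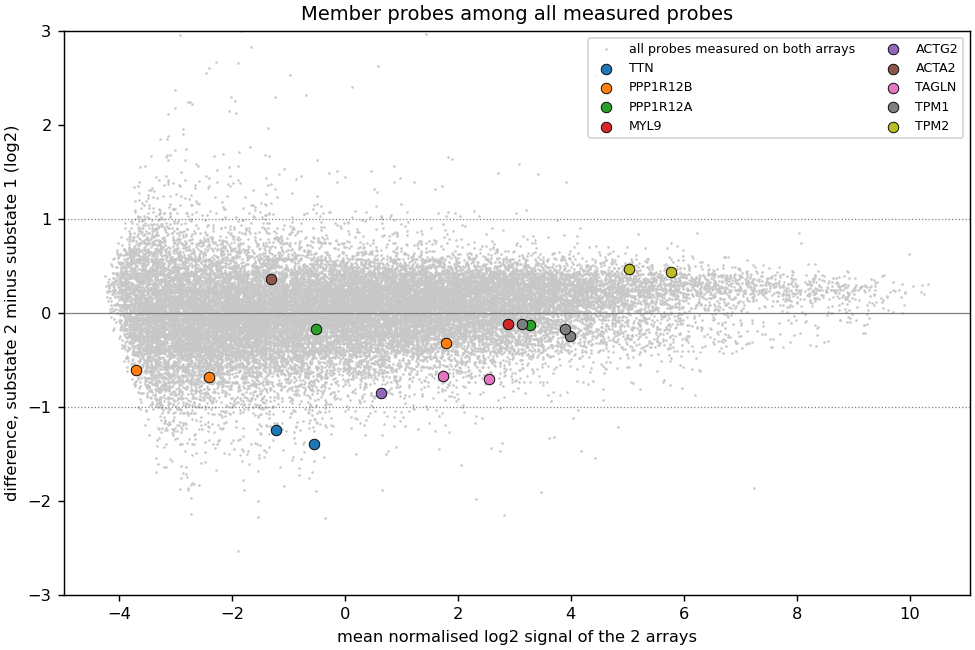
Difference between substate 2 and substate 1 (y axis, log2) against the mean normalised log2 signal of the 2 arrays (x axis) for the probes measured on both arrays, with the 17 member probes coloured by gene and dotted lines at 2-fold. TTN lies below the lower dotted line, and ACTG2, TAGLN and 2 of the PPP1R12B probes lie in the lower part of the cloud. The axis omits 5 probes beyond -3 or 3.

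The study ranked probes by a Z-score, the difference minus the mean over all non-control probes divided by their SD, with limits of -2 and 2, here equal to differences of -1.19 and 1.34. By this rule 3 of the 21 member probes were lower, all of TTN, against 3.30% of all 58201 probes, and 0 were higher, against 3.03%. The count was 9 when the SD was estimated by the median absolute deviation, and 5 under normexp. The share of all probes was not computed under either setting, so nothing is read from these counts. In the main setting, 1 of the 3 lower TTN probes was the near-background probe A_23_P68219 at a Z-score of -2.43. The measured TTN probes were at -2.31 and -2.09. The PPP1R12B probe A_33_P3257609 was just outside at -1.998, followed by ACTG2 at -1.46. The study counted PPP1R12B among its lower mRNAs, so a call this near the limit can differ from its own.

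By a 2-fold rule over the probes measured on 1 or both arrays, 3 of the 18 member probes were lower, the measured TTN probes and the PPP1R12B probe with a bound, against 1.67% of 33166 probes, and 0 were higher, against 1.55%. Of the 9 member genes measured on both arrays, 1 was lower by at least 2-fold in its mean, against 1.07% of 16001 genes, and 0 were higher, against 0.931%. Under normexp 1 member probe was lower by 2-fold, and the mean of TTN was under 2-fold there and without the filter on dim probes. The share of all probes was not computed under normexp. TTN and PPP1R12B were chosen on this contrast, and nothing is read from these counts.

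Counted against the scanner error, 6 of the 17 member probes measured on both arrays were lower by more than 2 errors, against 10.1% of the 29883 probes, and 2 were higher, against 10.6%. The 6 were both TTN and both TAGLN probes, the ACTG2 probe and 1 PPP1R12B probe, and the 2 were those of TPM2. Of the 6, 3 belong to the genes chosen for being lower, which leaves 3 of 12 probes without them, and the error is that of spots and not of cultures. Probes printed repeatedly on the arrays had a median SD between spots of 0.046 in substate 1 and 0.052 in substate 2 on the log2 scale, from 291 probes, so the scanner error is larger than the noise between spots of one array.

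Other sarcomere genes did not share 1 direction. Of 44 listed genes, 43 had a probe and 30 were measured on both arrays, 16 lower and 14 higher, or 53.3% lower against 40.2% of all measured genes, with a median of -0.09 against 0.08. One was lower by at least 2-fold, MYL7, the atrial light chain, from 124 to 48.9 units (-1.15). The 2 genes higher by that much were CRYAB, the small heat shock protein of the Z-disc, from 105 to 249 units (1.43), and FLNC, the muscle filamin (1.11). The 2 FLNC probes were apart, at 0.60 and 1.63.

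Some other thin filament and Z-disc genes are named here after their values were seen. TNNT2, the cardiac troponin T, was at -0.93 (182 and 84.0 units), TCAP, the titin cap protein that binds the end of titin in the Z-disc, was at -0.54 (556 and 336 units), and NEB, the giant thin filament ruler nebulin, was at -0.61 on its measured probe (65.2 and 37.6 units). TNNC1, the slow and cardiac troponin C, was at 0.96 (198 and 338 units).

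**Figure D4:**
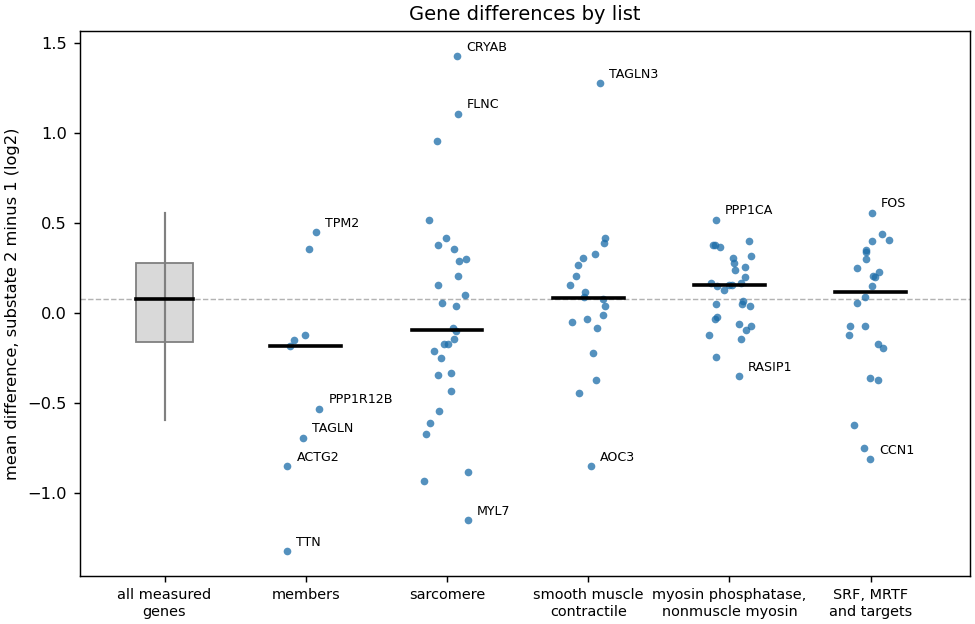
Mean difference per gene between substate 2 and substate 1 (y axis, log2) for the genes measured on both arrays, by list (x axis), with a black line at each median. The box for all 16001 genes spans the middle 50% and its line the middle 90%, from -0.59 to 0.56. The sarcomere list spreads from MYL7 at -1.15 to CRYAB at 1.43, wider than the phosphatase list.

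Of 24 further smooth muscle contractile genes, 20 were measured, 8 lower and 12 higher, or 40% lower, near the 40.2% of all measured genes, with a median of 0.09. The lowest was AOC3, an amine oxidase of vascular smooth muscle and fat, at -0.85, and the highest was TAGLN3, the 1 gene past 2-fold. Of the defining genes, calponin CNN1 was at 0.08, caldesmon CALD1 at -0.01 and myosin heavy chain MYH11 at 0.00 and 0.42 on its 2 probes. The smooth muscle markers DES and SYNPO2 were at 0.38 and 0.39.

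Of 32 myosin phosphatase and non-muscle myosin genes, 30 were measured, 9 lower and 21 higher, or 30% lower against 40.2%, with a median of 0.15 and 0 past 2-fold. They ran from RASIP1, a Ras-interacting protein of the endothelium, at -0.35 to PPP1CA at 0.52. The kinases opposed to the phosphatase were at 0.04 for ROCK1 and 0.24 for ROCK2, and the non-muscle heavy chains were at -0.24 for MYH9 and 0.15 for MYH10.

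Of 26 genes of SRF, its cofactors and their targets, 24 were measured, 10 lower and 14 higher, or 41.7% lower against 40.2%, with a median of 0.12 and 0 past 2-fold. The lowest were the matricellular gene CCN1, from 9794 to 4907 units (-0.81), THBS1 (-0.75) and CCN2 (-0.62), and the highest was the immediate early gene FOS (0.56). The focal adhesion targets were split, with VCL at -0.36 and ZYX at 0.40. Some known targets were therefore near ACTG2 and TAGLN in their difference, and others were on the higher side.

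Markers of muscle and mesenchymal cells were checked beside these values. Summed signals here and in the next paragraph are not normalised, and the 75th percentile was 313.7 units in substate 1 and 275.4 in substate 2. Of 11 cardiomyocyte marker genes, 7 were above background in both substates, with a summed signal of 34690 and 37050 units, of which the NKX2-5 probe alone gave 31741 and 34574 and the other probes together 2949 and 2476. The cardiac markers that were lowest beside TTN were MYL7 at -1.15, TNNT2 at -0.93 and the calcium release channel RYR2 at -0.90 (85.8 and 40.3 units on its measured probe). Of the 7 measured genes of this list, 4 were lower and 3 higher, with a median of -0.17. The others were MYH7 at -0.17, TNNI3 at 0.04, NPPB at 0.23 and NKX2-5 at 0.31. MYH6, NPPA, PLN and TBX5, defining genes of cardiac muscle, were well above background on neither array. Skeletal muscle markers (7 of 10 genes on each array, without MYF5, PAX3 and CKM) summed to 1871 and 1348 units, and ACTA1 gave 1099 and 523 of these. After normalisation 3 of the 7 were lower and 4 higher, with a median of 0.28. Smooth muscle markers (4 of 6 genes with a probe, without LMOD1 and MYOCD) summed to 2869 and 2794 units. After normalisation all 4 were higher, with a median of 0.30, but CNN1 was at 0.08 and 1 MYH11 probe at 0.00. The share lower was 57.1% for the cardiomyocyte, 42.9% for the skeletal and 0% for the smooth muscle list. Over all measured genes it was 40.2%, with a median of 0.08.

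Fibroblast and mesenchymal markers were above background for 5 of 10 genes on each array and summed to 53087 and 42566 units, of which THY1, also a surface antigen of pluripotent cells, gave 48204 and 39218. COL3A1, DCN, LUM, FAP and POSTN were well above background on neither array, and COL1A1 and COL1A2 were at -0.49 and -0.50 while PDGFRA was at 0.65 and PDGFRB at 0.21. The pluripotency markers were above background for all 9 genes with a probe, at 433177 and 410886 units in sum. After normalisation 2 were lower and 7 higher, or 22.2% lower against 40.2% of all measured genes. They ran from PODXL at -0.35 (114240 and 78890 units) to NANOG at 0.42, with POU5F1 at 0.27, SOX2 at 0.26 and SALL4 at -0.03. The values of the pluripotency markers do not go against the label of a human embryonic stem cell on either array. What the signal of the cardiac marker NKX2-5, at 31741 and 34574 units, reflects was not tested. The part of other cell types in the differences of the member genes was not tested.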

How the data were processed

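Total RNA of H9 cells was labelled with Cy3 and hybridised to SurePrint G3 Human GE arrays, 1 array per substate. The authors scanned them with Agilent Feature Extraction 11.5.1.1 (protocol GE1_1105_Oct12), and the deposited files give the processed signal intensity per spot with background and outlier flags. The deposited series matrix holds log2 values set by the authors to the 75th percentile of each chip, with signals under 1 set to 1. It matched the values computed here within 0.01 after a constant of 0.0065 and 0.0052 in the 2 substates.

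Here spots marked as outliers (71 and 101) were left out, log2 intensities were averaged per probe, and the 75th percentile over non-control probes was subtracted. Probes were named through RefSeq accessions (31104 of 58201 probes), so 53.4% had a gene. Gene values are means over the probes well above background and unsaturated on both arrays. A probe measured on 1 array has a bound, set against the higher of its own dim value and the lowest signal well above background on the dim array. For the PPP1R12B probe this was its own dim value.

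Members and gene lists were chosen with earlier results of these data known. All 10 members are named. From each list, genes past 2-fold and the highest and lowest were named, and other genes were named after their values were seen. There was no test, and 2 arrays limit the precision. Normalisation steps were tested on simulated data. Alternatives were computed with Python 3.11.15, R 4.3.3 and limma 3.58.1.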

Additional observations from a re-analysis of the deposited data

How the results depend on the processing

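The results were recomputed from the deposited series matrix, with outlier spots kept, after quantile normalisation, after centring each array on its median or the differences on a loess curve (span 0.3), and with other ways to average probes. Normexp correction with an offset of 50 was chosen after seeing the data in a form on the median spot signal, and the planned form on the mean spot signal and naming by a gene name column were not run, since these columns were not among those used here. Of 157 recomputed values, 138 stayed within the scanner error of the main value, within 1.5 times a count, or within the standard error of a list median, and 19 did not. No member gene changed sign in any of 9 alternatives. For member genes with 1 probe, the other ways to average probes cannot change the value, and the series matrix repeats the main normalisation. Many of the unchanged values were thus fixed in advance, and these counts do not measure how robust the results are. Under normexp TTN was at -0.90, PPP1R12B at -0.19 and its bound at -0.29, 5 member probes were past the lower Z-score limit and 1 was lower by 2-fold. Without a filter on dim probes TTN was at -0.92 and PPP1R12B at -0.70, and the brightest PPP1R12B probe alone was at -0.32. With loess centring TPM1 was at -0.30 and TPM2 at 0.29. When the SD was estimated by the median absolute deviation, 9 member probes were past the lower Z-score limit. For these counts of member probes the share of all probes was not computed. The sarcomere median was 0.10 without the filter, against -0.09. The phosphatase list median of 0.15 was 0.04 after quantile normalisation, 0.03 after loess centring and 0.09 after normexp, and the SRF list median of 0.12 was 0.00 after loess centring, -0.03 after normexp and 0.00 without the filter, so the sign of the sarcomere and SRF list medians is not settled. The median of the 2 antisense genes was 0.17, and -0.13 without the filter. The cause of these moves was not tested. No paired analysis was possible because the 2 arrays make 1 pair with no replicate, and for the same reason no array could be left out. Signals near 15 units, the lowest flagged as well above background, limit what can be said of the dim TTN, ACTC1 and PPP1R12B probes.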
